A study of Mus musculus with 4 samples.

Results

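Messenger RNA of 42 lysosomal genes was followed in CSF1R+ myeloid cells of the mouse heart, before and 7 days after myocardial infarction. The genes were chosen by name, with earlier results of these data known. Counts of them beside the share of all genes are therefore descriptions and no independent support. The 42 genes encode 8 cathepsins, 2 other proteases, 8 glycosidases or sulfatases, 4 lipid hydrolases or activators, 2 other lumenal proteins, 8 membrane proteins and 10 subunits of the proton pump V-ATPase. All 42 were among the 31053 genes of the deposited tables.

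Cells came from mice aged 12 to 16 weeks that carry a CSF1R-EGFP reporter, whose EGFP marks cells with an active Csf1r promoter. The hearts were digested, and cells positive for EGFP and negative for Ly6G were sorted, so that neutrophils were depleted and other CSF1R+ cells were kept. The baseline group was a single library made from 3 pooled hearts without surgery. The infarct group comprised 3 libraries of 1 heart each, taken after 7 days of permanent coronary ligation. Both groups carried the reporter. With 1 baseline library, no test of infarct against baseline was possible, and the library itself and the condition cannot be told apart.

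Lysosomes digest material that cells engulf, which in a healing infarct includes dead cardiomyocytes and neutrophils. Cathepsins and legumain cut proteins, glycosidases and sulfatases strip sugars and sulfates from glycoconjugates, and saposins made from prosaposin (Psap) help lipid hydrolases reach their substrates. V-ATPase acidifies the lumen, and heavily glycosylated proteins such as Lamp1 and Lamp2 line the membrane. Many lysosomal genes carry an E-box-like element, the CLEAR element, to which the factors TFEB, TFE3 and MITF bind.

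Libraries held 71093963 to 97944428 UMIs (unique molecular identifiers). After filtering, 10117 to 10782 cells per library were kept. The median was 6398.5 UMIs per cell at baseline and 8470 to 8557 in the infarct libraries, and the median mitochondrial share was 4.26% against 2.76 to 3.43%. Pairs of libraries shared 26 to 34 cell barcodes, at most 0.332% of the smaller library. Levels are given as CPM, the UMIs of a gene per 1000000 UMIs of non-mitochondrial genes in a library or in one of its groups of cells. They count molecules from their 3′ end. Cells were grouped by markers that include none of the 42 genes. The C1q-high cells fell into macrophages with resident, interferon, cycling, Saa3-Arg1 or Gpnmb-Spp1 markers and into the remaining macrophages, and other gates held monocytes, dendritic cells, granulocytes and lymphocytes.

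Promoter sequence was examined first, because the CLEAR core TCACGTG is a property of the genes that no expression value enters. RefSeq promoters of 300 bases, 250 before and 50 after the start (GRCm38.p6), were found for 36 of the 42 genes. TCACGTG, on either strand, was present in 13 of the 36 (36.1%), beside 4.29% of all 27025 genes in the table. The shorter CACGTG, which every TCACGTG contains, was present in 14 (38.9%) beside 8.09%. The 13 genes were Ctsa, Ctsd, Lgmn, Glb1, Gaa, Naglu, Sgsh, Lamp1, Cln3, Mcoln1, Atp6v0b, Atp6v0d1 and Atp6v1a, and Ctsl held only the shorter letters. A match is a description of the letters and does not show a bound site.

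The windows below were chosen by expression. They belong to the 5 genes with the motif that lay past 1.5-fold above baseline (all cells) and to Lamp1, which held 4 copies of the core. Among genes with a promoter sequence, the motif was present in 5 of 11 past 1.5-fold above and in 8 of 25 others. For the genes called higher in Gpnmb-Spp1 macrophages it was 4 of 10, against 9 of 26 not called. Neither difference was tested. Capitals mark letters matching TCACGTG on either strand, and each sequence is upstream of the start, 5′ to 3′ on the strand of the gene.
Ctsd, chr7:142387899-142387946, minus strand: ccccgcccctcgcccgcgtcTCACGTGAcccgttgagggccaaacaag
Lgmn, chr12:102439116-102439162, minus strand: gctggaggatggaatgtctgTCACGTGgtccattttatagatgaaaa
Naglu, chr11:101070000-101070046, plus strand: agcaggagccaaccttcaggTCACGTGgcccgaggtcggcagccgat
Sgsh, chr11:119355513-119355559, minus strand: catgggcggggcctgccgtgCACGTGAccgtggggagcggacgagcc
Atp6v1a, chr16:44139364-44139411, minus strand: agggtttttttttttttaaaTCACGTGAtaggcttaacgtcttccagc
Lamp1, chr8:13159079-13159160, plus strand: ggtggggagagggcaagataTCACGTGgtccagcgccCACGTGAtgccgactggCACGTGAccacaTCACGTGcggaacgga
The core began 98 bases before the start of Ctsd and 49 bases before that of Lgmn. Ctsd held a further copy 245 bases before its start, at the far end of the window. The 4 copies of Lamp1 lay between 61 and 15 bases before its start.

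The question of the first comparison was how the level of lysosomal transcripts in CSF1R+ cells differed between infarct and baseline. The 42 genes together held 17399 CPM at baseline, with an exact 95% Poisson interval of 17368 to 17430 that covers counting error only. They held 27233, 27751 and 27486 CPM in infarct replicates 1, 2 and 3, a mean of 27490 ± 259 (SD, n = 3). The infarct mean was 1.58-fold the baseline value, and the 3 infarct libraries lay within a narrow range far above it. Per cell, the median share of UMIs from the 42 genes was 1.57% at baseline and 2.39%, 2.54% and 2.47% in the infarct libraries. Sums over all cells mix types, and here a change in the types present and a change within a type cannot be told apart.

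The sums of cathepsins and of the other proteases had the largest ratios. Cathepsins together went from 7172 CPM at baseline to 14300 ± 389 (SD, n = 3) in the infarct, 1.99-fold, and Lgmn with Tpp1 from 645 to 1408 ± 106, 2.18-fold. Grn with Creg1, the other lumenal proteins, followed with 773 and 1325 ± 36.0 CPM, 1.71-fold. The sum of the membrane proteins was 1.14-fold, of the lipid hydrolases or activators 1.20-fold, of the glycosidases and sulfatases 1.24-fold and of the V-ATPase subunits 1.25-fold. Cathepsin D (Ctsd), an aspartic protease, made up 20.8% of the summed gain in CPM, and Ctsd, Ctss and Ctsb together 57.9%.

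Ctsd stood out. Its level was 449 CPM at baseline (Poisson interval 444 to 454) and 2618, 2464 and 2548 CPM in infarct replicates 1, 2 and 3. The mean of 2543 ± 77.5 (SD, n = 3) was 5.66-fold the baseline value, with the infarct libraries close together. Ctsl, the cysteine protease cathepsin L, measured 171 CPM at baseline and 576, 660 and 542 CPM in the infarct libraries, 3.46-fold on average. Legumain (Lgmn), an asparaginyl endopeptidase that processes cathepsins, measured 525 CPM at baseline and 1212, 1371 and 1187 CPM, 2.39-fold. All infarct values of these 3 proteases, picked as the highest ratios, lay above baseline by more than the range among the infarct libraries.

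The 6 genes with the most UMIs included the cysteine proteases Ctsb and Ctss. Ctsb measured 1912 CPM at baseline and 3596, 3977 and 3671 CPM in the infarct libraries. Ctss, which trims the invariant chain in antigen presentation, measured 1816 CPM at baseline and 3498, 3706 and 3984 CPM. The means were 1.96-fold and 2.05-fold baseline, and both genes were above it in all 3 libraries. Psap measured 2196 CPM at baseline and 3143, 2443 and 2828 CPM, 1.28-fold, with the infarct libraries spread widely. Laptm5, a membrane protein of haematopoietic cells, measured 1203 CPM at baseline and 1323, 1321 and 1326 CPM. Ctsc, cathepsin C, which activates granule serine proteases, measured 1341 CPM at baseline and 1242, 1340 and 1217 CPM, so that infarct replicate 2 lay next to baseline.

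The lowest ratio belonged to Atp6v0c, the proteolipid of the pump, with 9.81 CPM at baseline and 5.24, 5.998 and 5.94 CPM in the infarct libraries, a log2 ratio of −0.78 at a level under 10 CPM. Among genes with at least 10 CPM, Mcoln1, a calcium channel of the lysosomal membrane, measured 13.4 CPM at baseline and 10.0, 9.76 and 10.1 CPM in the infarct libraries. Atp6v1h, the regulatory H subunit of V-ATPase, measured 60.5 CPM at baseline and 49.3, 48.9 and 48.6 CPM. Acid ceramidase (Asah1) measured 340 CPM at baseline and 301, 322 and 329 CPM. The infarct values of these 3 genes lay below baseline, by a log2 ratio of −0.42, −0.31 and −0.10.

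Of the 42 genes, 41 reached 10 CPM in either group. Of these, 13 were at least 1.5-fold above baseline with all 3 infarct libraries above it, beside 5.53% of all 8249 genes, and 0 were as far below, beside 23.1%. The median log2 ratio was 0.35 over the 41 and −0.21 over all genes. The 13 comprised 6 of 8 cathepsins (Ctsd, Ctsl, Ctss, Ctsb, Ctsz, Ctsh), Lgmn, the sulfatase and glycosidases Sgsh, Gusb and Naglu, the lumenal proteins progranulin (Grn) and Creg1, and of 9 V-ATPase subunits only Atp6v1a, the catalytic A subunit (105 CPM at baseline and 201, 214 and 187 CPM). None of the 8 membrane proteins and none of the 4 lipid hydrolases or activators passed. Atp6v0c was under the limit. Scaling by TMM moved the median of all genes from −0.21 to 0.09, and 26 of the 41 genes then passed above, beside 16.9% of all genes, and 0 below, beside 9.77%. Under 3 other settings 1 gene passed below baseline, beside 22.6% of all genes by the mean of cell CPM and 32.7% without a filter.

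**Figure D1:**
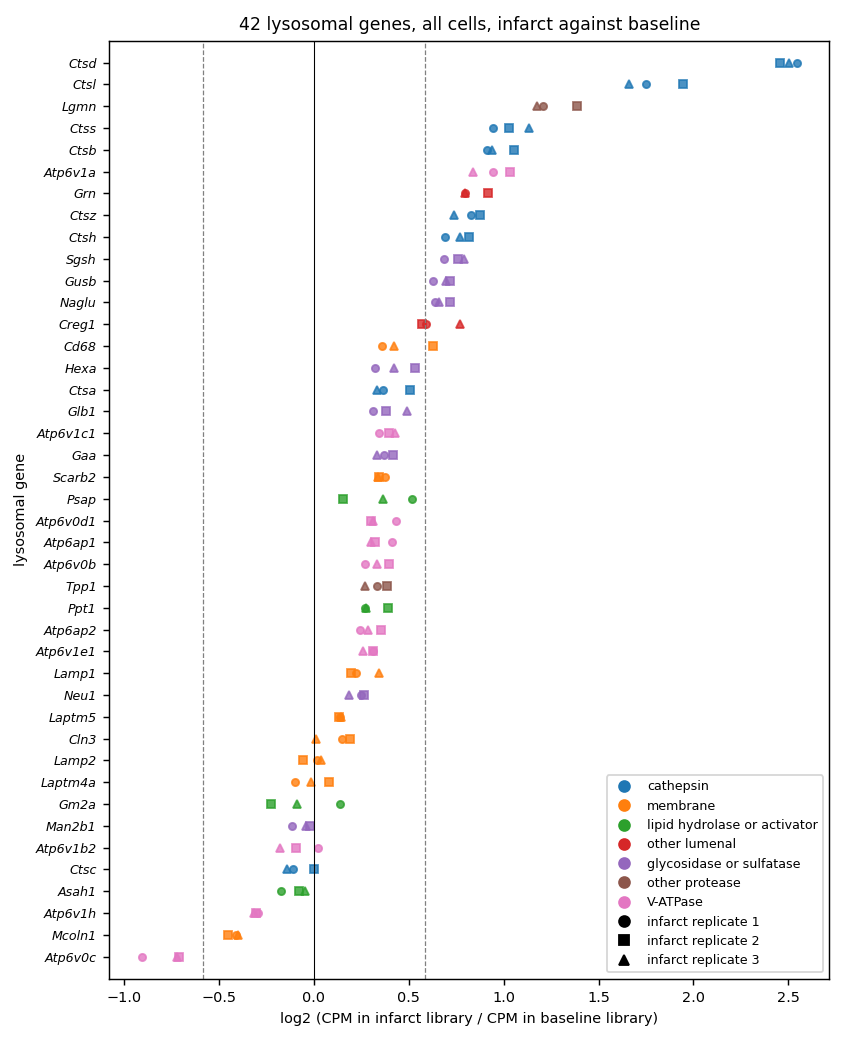
Log2 ratio of CPM in each infarct library to CPM in the baseline library for the 42 genes (all cells), coloured by role, with dashed lines at 1.5-fold. Ctsd lies near 2.5 in all 3 infarct libraries, Ctsl and Lgmn follow, and most V-ATPase and membrane genes lie between 0 and the upper dashed line.

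From a second list of 57 lysosomal genes that are no members, 55 reached 10 CPM, of which 17 passed 1.5-fold above and 2 below baseline, with a median log2 ratio of 0.21. The 4 with the largest ratios were Ctsk, Acp5, Igf2r and Arsb. Igf2r, which carries newly made hydrolases to lysosomes, measured 9.05 CPM at baseline and 29.2 ± 0.195 CPM (SD, n = 3) in the infarct. Arsb, a sulfatase, went the other way, with 61.8 CPM at baseline and 17.5 ± 1.49 CPM. Ctsk, the collagen-degrading cathepsin of osteoclasts, measured 2.20 CPM at baseline and 9.50, 137 and 22.2 CPM, and Acp5, an acid phosphatase of osteoclasts and macrophages, 18.6 CPM at baseline and 83.0, 187 and 95.6 CPM. Infarct replicate 2 was the highest for both. By CPM, transcripts of the factors that bind CLEAR elements were not above baseline: Tfeb measured 38.5 CPM at baseline and 31.2 ± 2.90 CPM in the infarct, Tfe3 79.2 and 59.3 ± 3.60 CPM, and Mitf 54.1 and 47.2 ± 3.04 CPM. The median log2 ratio of all genes was −0.21 by CPM and 0.09 with TMM scaling, for which these factors are not given. They were chosen after their values were seen.

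The second question was whether the difference from baseline was found within types of cells. Remaining macrophages, C1q-high cells assigned to no other gate, numbered 3229 at baseline and 4664 to 5761 in the infarct libraries. Their summed level of the 42 genes was 16991 CPM at baseline and 24789, 26437 and 25744 CPM in infarct replicates 1, 2 and 3, 1.51-fold on average. Resident macrophages were gated on the summed UMIs of Lyve1, Cd163, Timd4, Folr2, F13a1 and Cbr2, not on any single marker. They measured 19206 CPM at baseline and 30652, 27725 and 26503 CPM, 1.47-fold. Interferon macrophages measured 1.52-fold and cycling macrophages 1.66-fold. In each of these 4 gates all 3 infarct libraries lay above the baseline library. The markers of remaining macrophages also differed by condition. Their median of resident marker UMIs per 10000 was 5.25 at baseline and 0 in each infarct library. For Gpnmb-Spp1 markers it was 0 against 1.22 to 1.5, and for classical monocyte markers 0 against 2.66 to 6.37. How far these markers bear on the 1.51-fold ratio was not tested.

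In monocytes and dendritic cells the ratios were closer to 1. Classical monocytes measured 15461 CPM at baseline and 18065 ± 353 CPM (SD, n = 3) in the infarct, 1.17-fold. Non-classical monocytes measured 14762 and 16932 ± 404 CPM, and dendritic cells 12017 and 13047 ± 325 CPM. The difference between these ratios and those of the 4 macrophage gates above was not tested.

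In Gpnmb-Spp1 macrophages the sum was close to baseline. These cells were gated on the summed UMIs of Gpnmb, a lysosomal glycoprotein gene, Spp1 and Gdf15. They were 114 cells at baseline and 1762, 2339 and 1819 cells in the infarct libraries. Their 42 genes summed to 36767 CPM at baseline and to 39659, 36295 and 38436 CPM in the infarct. The baseline value lay between those of the infarct libraries, and it was above the value of every other gate at baseline. The placement depended on the setting: with TMM scaling, the mean of cell CPM, thinning, or cuts doubled or halved, all 3 infarct libraries lay above baseline, by a log2 ratio of 0.23, 0.18, 0.16, 0.15 and 0.08. At baseline these cells had a median of 67.3 macrophage marker UMIs (C1q genes, Adgre1 and Mertk) per 10000 and 5.69 classical monocyte marker UMIs, against 157 to 188 and at most 1.23 in the infarct libraries. The part of these markers in the result was not tested.

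Ctsd was followed through the same gates. Remaining macrophages held 294 CPM at baseline and 1771, 1949 and 1895 CPM in the infarct, 6.37-fold. Resident macrophages held 434 CPM at baseline and 3030, 2652 and 2939 CPM, 6.63-fold. Gpnmb-Spp1 macrophages held 4649 CPM at baseline already, and 5721, 4476 and 4940 CPM in the infarct, a range that contains the baseline value. Levels were lower in monocytes and dendritic cells: 203 CPM at baseline and 525 ± 59.0 CPM (SD, n = 3) in classical monocytes, and 77.3 and 328 ± 33.2 CPM in dendritic cells. In B cells, which share the sort only as a minor population, Ctsd measured 92.8 CPM at baseline and 1259 and 1578 CPM in the infarct libraries with at least 20 such cells, whose B cells also carried medians of 7.82 and 31.2 macrophage marker UMIs per 10000 against 3.93 at baseline. RNA shared between droplets was not measured, and its part in the low levels was not tested.

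**Figure D2:**
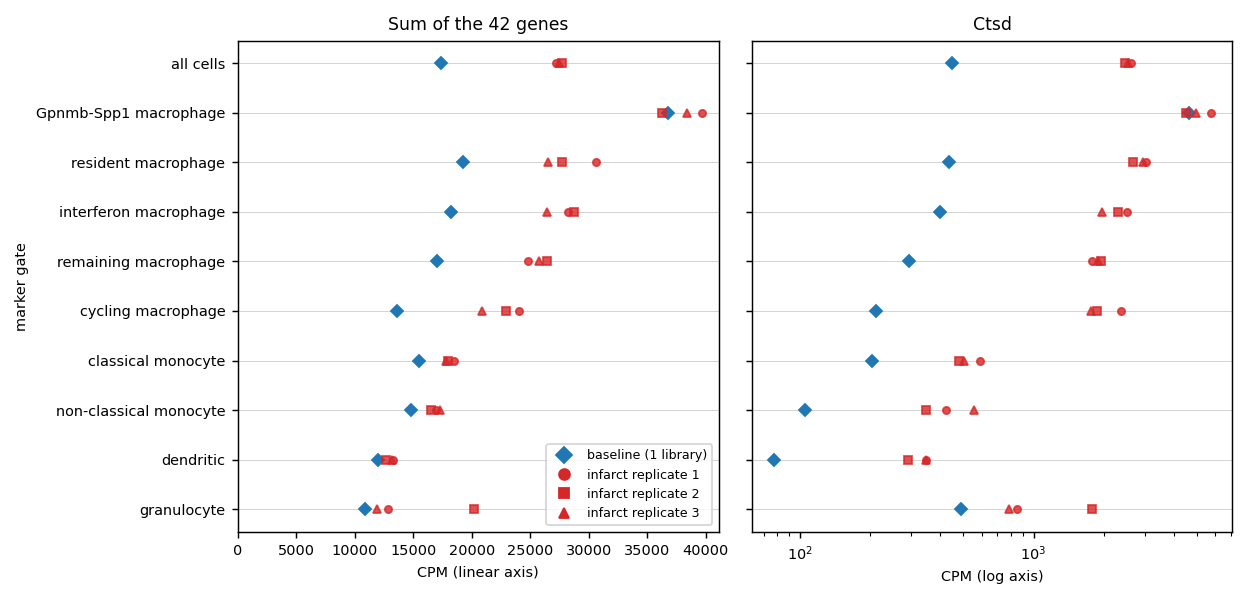
CPM of the 42 genes together (left, linear axis) and of Ctsd (right, log axis) in all cells and in 9 marker gates, for the baseline library (blue) and 3 infarct libraries (red). In most macrophage gates the red points lie to the right of the blue one, while in Gpnmb-Spp1 macrophages the blue point lies within the red ones.

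Among the single genes in remaining macrophages, all 42 reached 10 CPM, of which 9 lay at least 1.5-fold above baseline, beside 6.65% of all genes, and 1 as far below, beside 20.9%. The 9 were Ctsd, Ctsl, Sgsh, Lgmn, Ctsb, Grn, Atp6v1a, Ctss and Ctsh, and the 1 below was Atp6v0c (10.8 CPM at baseline and 6.21 ± 0.180 CPM in the infarct). With TMM scaling 26 lay above, beside 17.4% of all genes, and 0 below, beside 8.78%. Sgsh, the sulfatase of heparan sulfate, measured 9.03 CPM at baseline and 20.5, 21.8 and 22.3 CPM.

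In resident macrophages, 15 of 42 genes lay above baseline by that rule, beside 9.69% of all genes, and 1 below, beside 17.8%. The 15 included 5 cathepsins (Ctsd, Ctsl, Ctsb, Ctss and Ctsz) and 5 V-ATPase subunits (Atp6v1a, Atp6v1b2, Atp6v0d1, Atp6v1e1 and Atp6ap1). Psap measured 1436 CPM at baseline and 3796, 1865 and 2675 CPM in the infarct libraries, all above baseline and far apart from each other. Ctsc went the other way without passing, with 2067 CPM at baseline and 1379, 1906 and 1296 CPM. The gene below baseline was again Atp6v0c, with 12.1 CPM and 3.46 ± 2.27 CPM. Without infarct replicate 1 or 2, 2 genes lay below. With cuts doubled 9 genes lay above, beside 10.4% of all genes. In infarct replicates 1, 2 and 3, 102 of 297, 45 of 131 and 83 of 253 cells of this gate lay within 25% of its cut. At baseline 278 of 3175 did. The infarct cells of this gate had a median of 28.0 to 30.0 resident marker UMIs per 10000 against 59.7 at baseline, and in infarct replicate 1 also 21.1 UMIs of the Saa3-Arg1 list. The part of these markers in the result was not tested.

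In Gpnmb-Spp1 macrophages, 41 genes reached 10 CPM, 4 lay above baseline, beside 8.18% of all genes, and 4 below, beside 16.9%. The number above was near that share and the number below was under it. Those above were Sgsh, Ctsc, Ctsl and Lgmn. Ctsc measured 674 CPM at baseline and 1292, 1352 and 1217 CPM, and Ctsl 572 CPM at baseline and 1026, 1091 and 1001 CPM. Those below were Mcoln1 and 3 subunits of the cytosolic V1 sector of V-ATPase, but the log2 ratio of Mcoln1 turned from −0.75 to 0.027 with cuts halved. Of these, Atp6v1c1 measured 213 CPM at baseline and 113, 103 and 118 CPM, and Atp6v1b2 259 CPM at baseline and 146, 137 and 134 CPM. The infarct values of these examples lay close together. The rule that picked them puts all 3 infarct libraries on the same side of baseline, which here was 114 cells of 1 library. Of these 114 cells, 4 (3.51%) had 3 or more Ctsk UMIs, against 0.284% to 0.513% in the infarct libraries. With TMM scaling 10 genes lay above, beside 14.2%, and 2 below, beside 9.11%.

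Classical monocytes were gated on the summed UMIs of Ly6c2, Plac8, Vcan, Chil3 and Ccr2. In them 40 genes reached 10 CPM, 5 lay above baseline, beside 7.42% of all genes, and 1 below, beside 18.3%. Ctsl measured 74.7 CPM at baseline and 444, 402 and 219 CPM in infarct replicates 1, 2 and 3, and Lgmn 162 CPM at baseline and 520, 556 and 407 CPM. Ctsd, Ctsc and Ctsz also passed. The gene below was Atp6v1b2, with 225 CPM at baseline and 133, 134 and 144 CPM. Without infarct replicate 3, 2 genes lay below.

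The third question was how the gates differed from each other within the infarct, where each library gives its own comparison. Sums of each gate were compared with the remaining macrophages of the same 3 hearts by edgeR's quasi-likelihood test, with 11085 genes tested and an adjusted p under 0.01 as the threshold. All 42 genes were tested. The gates share this comparator, so their results are not independent of each other.

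Gpnmb-Spp1 macrophages had the highest sum of the 42 genes among the tested gates, 38130 ± 1703 CPM (SD, n = 3) against 25657 ± 828 in remaining macrophages. Of the 42 genes, 12 were higher than in remaining macrophages, beside 3.73% of all genes, and 0 were lower, beside 2.91%. The median log2 fold change was 0.37 over the 42 genes and −0.01 over all genes. Without adjustment, 27 genes were higher and 0 lower at p under 0.05, for which no share of all genes was taken. The DESeq2 Wald test called 17 and 0, beside 4.86% and 3.56% of all genes. The count depended on the libraries: it was 1 without infarct replicate 1, beside 1.54% of all genes, and 3 without replicate 3, beside 1.29%. Only Ctsd passed with each library left out. The count was 4 without the library block, beside 1.14%. When these gates were fitted alone, so that the spread came from macrophages only, it was 31, beside 11.7% of all genes, with 1 lower, beside 10.4%.

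Ctsd measured 5721, 4476 and 4940 CPM in the Gpnmb-Spp1 gate of infarct replicates 1, 2 and 3, against 1771, 1949 and 1895 CPM in remaining macrophages. Its log2 fold change was 1.45 ± 0.20 (SE; adjusted p = 1.0e-05, edgeR). Ctsl measured 1026, 1091 and 1001 CPM against 392, 455 and 425 CPM, a log2 fold change of 1.32 ± 0.24 (adjusted p = 3.1e-04, edgeR). Ctsb measured 6632, 6243 and 6325 CPM against 2903, 3572 and 3211 CPM, a log2 fold change of 1.02 ± 0.20 (adjusted p = 7.0e-04, edgeR). The values of the gates did not overlap for any of the 3 genes. They were picked as the largest of the changes called, so this adds no support to the calls.

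The other 9 genes that were higher were the macrosialin gene Cd68, Creg1, Psap, the C subunit gene Atp6v1c1, Naglu, Grn, Lamp1, Sgsh and Ctss. The 3 smallest changes were those of Lamp1 (log2 0.50 ± 0.09), Sgsh (0.45 ± 0.09) and Ctss (0.42 ± 0.10). Ctsc was not called, and neither were Ctsh and Laptm5. From the second list, 16 of 57 genes were higher and 0 lower. Igf2r had a log2 fold change of 2.09 ± 0.18 and Gla, the galactosidase lacking in Fabry disease, of 1.13 ± 0.10. The osteoclast genes Atp6v0d2 (2.73 ± 0.43) and Ctsk (2.63 ± 0.31) were low in both gates, at most 31.3 and 33.0 CPM in Gpnmb-Spp1 macrophages. Cells with 3 or more Ctsk UMIs were 0.284% to 0.513% of this gate in the infarct libraries and 3.51% at baseline (4 of 114). Leaving them out of every gate gave 18 members higher, beside 4.47% of all genes, and 0 lower, beside 3.5%. Leaving Mmp9 out of the granulocyte markers also gave 18 higher, beside 4.48%, and 0 lower, beside 3.54%. The median of the 42 genes was then 0.371 against 0.372. All gates share the same estimate of spread in these fits, so the count does not belong to the Ctsk cells of this gate alone.

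**Figure D3:**
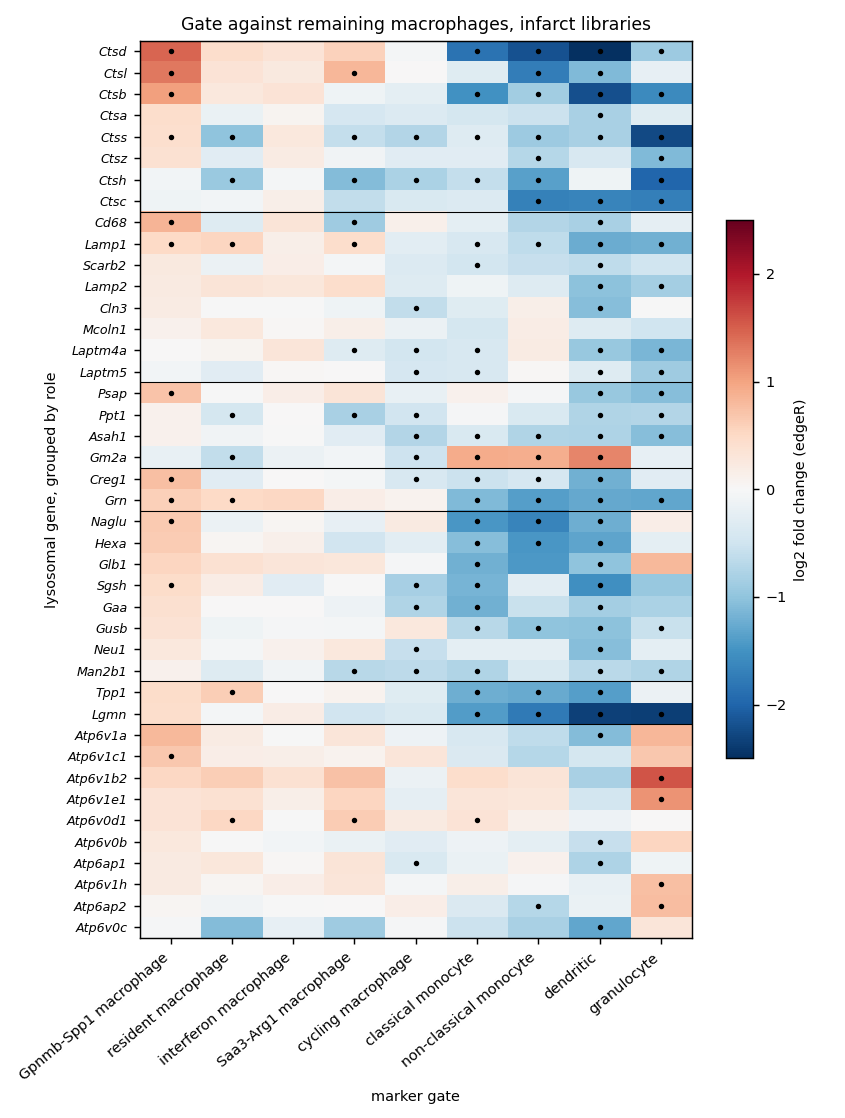
Log2 fold change (edgeR, infarct libraries) of the 42 genes in 9 gates against remaining macrophages, with genes grouped by role and a dot where the adjusted p was under 0.01. Gpnmb-Spp1 macrophages are red with dots at Ctsd, Ctsl and Ctsb, dendritic cells are blue for most genes, and Gm2a is red in dendritic cells and both monocyte gates.

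The Gpnmb-Spp1 gate is a range of levels and not a type: 206 of its 1762 cells in infarct replicate 1, 325 of 2339 in replicate 2 and 270 of 1819 in replicate 3 lay within 25% of the cut, as did 334, 513 and 456 cells outside the gate. The genes were therefore followed over the number of Gpnmb UMIs itself, in macrophages thinned to 2000 UMIs each. Summed over the 42 genes, cells of the infarct libraries held 26539 ± 397 CPM with 0 Gpnmb UMIs, 37051 ± 774 with 1, 44075 ± 1466 with 2 to 3 and 54879 ± 4263 with 4 or more (SD, n = 3). The sum was higher at each step in all 3 libraries.

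Ctsd measured 2168 ± 70.8 CPM with 0 Gpnmb UMIs and 8985 ± 1482 CPM with 4 or more, 4.14-fold, and Ctsl 493 ± 28.5 and 2235 ± 359 CPM, 4.53-fold. Cd68, Ctsb and Psap followed with 2.92-fold, 2.82-fold and 2.81-fold. Of the 41 genes that averaged 10 CPM or more over these cells, 33 were higher with 4 or more than with 0 UMIs in all 3 libraries, beside 16.1% of the 7521 genes that reached it. In all 3 libraries, 14 were not lower at any step, beside 1.28%. Ctsc and Laptm5 were lower in all 3, beside 30.3%. Ctsc measured 1386 ± 52.6 CPM with 0 and 1036 ± 161 CPM with 4 or more. At baseline, where only 27 cells had 4 or more Gpnmb UMIs, Ctsd measured 313 CPM with 0 and 6889 CPM with 4 or more. Among cells with no Gpnmb UMI, Ctsd was thus at 313 CPM at baseline and at 2250, 2130 and 2125 CPM in infarct replicates 1, 2 and 3.

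**Figure D4:**
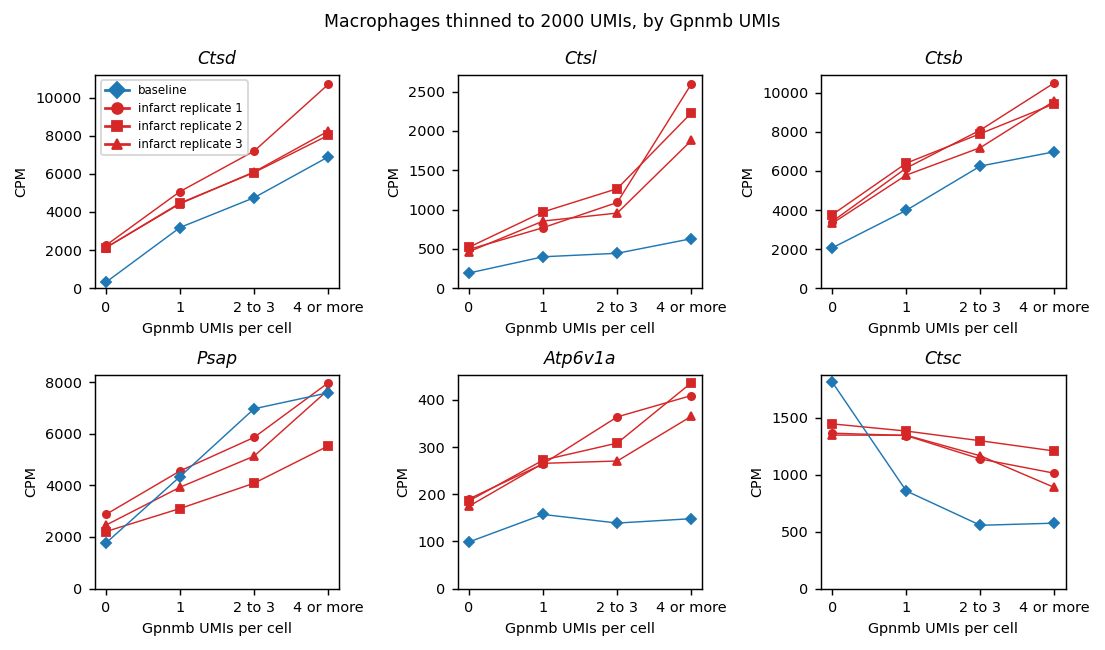
CPM of 6 genes in macrophages thinned to 2000 UMIs, by the number of Gpnmb UMIs per cell, for the baseline library (blue) and 3 infarct libraries (red). Ctsd, Ctsl, Ctsb, Psap and Atp6v1a are higher with more Gpnmb UMIs in the infarct libraries and Ctsc is lower, and Ctsd at 0 Gpnmb UMIs is far lower at baseline than in the infarct libraries.

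In resident macrophages of the infarct, 4 of the 42 genes were higher than in remaining macrophages, beside 9.68% of all genes, and 4 lower, beside 8.68%, numbers near the background. Those higher were the tripeptidyl peptidase Tpp1 (log2 0.61 ± 0.17), Lamp1 (0.53 ± 0.09), Atp6v0d1 (0.53 ± 0.10) and Grn (0.50 ± 0.14). Those lower were Ctss (−1.02 ± 0.10), Ctsh (−0.93 ± 0.13), the GM2 activator gene Gm2a (−0.62 ± 0.10) and the thioesterase Ppt1 (−0.44 ± 0.12). Ctss, the lowest of the genes called, measured 2174, 2002 and 2077 CPM in resident and 3496, 3745 and 3913 CPM in remaining macrophages. Ctss, Ctsh and Gm2a passed with each library left out. The number of higher genes was 0 without infarct replicate 1, beside 5.57% of all genes, and 1 without replicate 3, beside 4.47%. In the second list, 4 genes were higher and 4 lower, including Tfeb (−0.64 ± 0.15), the cathepsin inhibitor Cst3 (−0.73 ± 0.13) and Acp5 (−2.35 ± 0.60).

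Saa3-Arg1 macrophages, which were numerous in infarct replicates 1 and 3 (842 and 538 cells) but not in replicate 2 (86 cells), had 3 genes higher, beside 17.6% of all genes, and 6 lower, beside 17.3%. Ctsl (0.83 ± 0.24), Atp6v0d1 (0.64 ± 0.09) and Lamp1 (0.43 ± 0.09) were higher. Ctsh (−1.09 ± 0.13), Cd68 (−0.89 ± 0.22) and Ppt1 (−0.81 ± 0.12) were the lowest. The number of higher genes was 1 without infarct replicate 1 and 6 without replicate 2, each beside 14.7% of all genes. In the second list, Igf2r was higher (1.58 ± 0.22), and Ctsf (−1.46 ± 0.20) and Cst3 (−1.44 ± 0.13) were lower.

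Cycling macrophages had 0 genes higher, beside 16.4% of all genes, and 14 lower, beside 15.4%. At an unadjusted p under 0.05, 2 were higher, with no share of all genes taken. The DESeq2 Wald test called 2 higher, beside 17.4% of all genes. Sgsh (−0.84 ± 0.14), Ctsh (−0.78 ± 0.13) and Gaa (−0.75 ± 0.16) were the lowest, whereas the levels of Ctsd and Ctsb were close to those of remaining macrophages, 1999 ± 317 against 1872 ± 91.4 CPM and 3003 ± 444 against 3229 ± 335 CPM (SD, n = 3). Without infarct replicate 3, 7 genes were lower, beside 6.08% of all genes. In the second list, Ctsf (−1.36 ± 0.20) and Pla2g15 (−0.85 ± 0.14) were lower, and Arsb was higher (1.23 ± 0.23). In interferon macrophages, 0 genes were called in either direction, beside 5.87% of all genes higher and 1.35% lower. Without adjustment 3 were higher and 1 lower at p under 0.05, with no share of all genes taken. The DESeq2 Wald test called 2 and 0, beside 6.71% and 1.79% of all genes. Without infarct replicate 2, 1 was higher, beside 4.6%. Fitted alone with remaining macrophages, 14 were higher, beside 9.04% of all genes. In the second list, Atp6v0a2 (1.09 ± 0.10) and Gla (0.73 ± 0.12) were higher.

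Of the 10 proteases (the cathepsins, Lgmn and Tpp1), 6 were lower than in remaining macrophages in classical monocytes, 9 in non-classical monocytes and 8 in dendritic cells, and 0 were higher. Of all genes, 20.7%, 9.14% and 16.5% were lower in these gates, and 19.7%, 10.7% and 17.2% higher. In the granulocyte gate 7 of the 10 were lower, beside 8.75% of all genes, and 0 higher, beside 9.33%. Classical monocytes had 20 genes lower, beside 20.7% of all genes, and 2 higher, beside 19.7%, with a median of −0.40 over the 42 genes and −0.03 over all genes. Ctsd (−1.85 ± 0.20), Ctsb (−1.52 ± 0.20) and Naglu (−1.45 ± 0.19) were the lowest. Gm2a was higher (0.93 ± 0.10), as was Atp6v0d1 (0.33 ± 0.09). Without infarct replicate 1, 12 genes were lower, beside 13.8% of all genes. Leaving out any one library left 1 higher, Gm2a, beside 13.7% to 16.8%. Non-classical monocytes had 17 genes lower, beside 9.14% of all genes, and 1 higher, beside 10.7%. Ctsd (−2.19 ± 0.22), Lgmn (−1.76 ± 0.16) and Ctsl (−1.74 ± 0.28) were the lowest. Without infarct replicate 2, 2 genes were higher, beside 7.44% of all genes.

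Dendritic cells had 32 of 42 genes lower, beside 16.5% of all genes, and 1 higher, beside 17.2%. The median was −0.90 over the 42 genes and −0.02 over all genes. Ctsd (−2.53 ± 0.21), Lgmn (−2.34 ± 0.16) and Ctsb (−2.20 ± 0.21) were the lowest, and of the 32 genes, 21 passed with each library left out. Ctss was less far below (−0.81 ± 0.10), with 2140 ± 24.1 CPM against 3718 ± 210 CPM in remaining macrophages. In the second list, Cst7, which encodes the cathepsin inhibitor cystatin F, was higher in dendritic cells (4.07 ± 0.27) and in classical monocytes (1.86 ± 0.29).

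Gm2a, which encodes the GM2 activator, followed another order across gates than Ctsd. It measured 852, 694 and 825 CPM in dendritic cells, 693, 620 and 724 CPM in non-classical monocytes and 674, 604 and 637 CPM in classical monocytes of infarct replicates 1, 2 and 3, against 377, 302 and 326 CPM in remaining macrophages. None of these ranges overlapped that of remaining macrophages. Gm2a was chosen after its values were seen and was called in all 3 gates, so this adds no support. The range of non-classical monocytes overlapped both the dendritic and the classical monocyte range. The log2 fold change was 1.22 ± 0.10 in dendritic cells, 0.91 ± 0.10 in non-classical and 0.93 ± 0.10 in classical monocytes, and all 3 calls held under each of the 15 alternatives. At baseline the log2 ratio to remaining macrophages was 1.67, 1.19 and 0.87 in the same order.

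The granulocyte gate did not hold one kind of cell in the infarct. It contained 72 to 108 cells of an Ly6G-depleted sort and had 17 genes lower, beside 8.75% of all genes, and 4 higher, beside 9.33%. Lgmn (−2.36 ± 0.17), Ctss (−2.25 ± 0.11) and Ctsh (−1.99 ± 0.15) were the lowest. Those higher were the V-ATPase subunit genes Atp6v1b2 (1.58 ± 0.26), Atp6v1e1 (1.13 ± 0.23), Atp6ap2 (0.77 ± 0.15) and Atp6v1h (0.75 ± 0.19). With them stood osteoclast genes of the second list: Ctsk measured 0 CPM at baseline and 880, 11589 and 1803 CPM in infarct replicates 1, 2 and 3, Acp5 4.54 CPM and 445, 8021 and 960 CPM, and Atp6v0d2 4.54 CPM and 28.7, 827 and 89.2 CPM. In replicate 2, 11 of the 72 cells had 3 or more Ctsk UMIs, against 1 in each of the other infarct libraries. Without infarct replicate 2, 1 gene was higher, beside 6.62% of all genes. Without Mmp9 in the gate's markers, or without cells with 3 or more Ctsk UMIs, 0 were higher and 22 lower. Of all genes, 9.13% and 9.31% were then higher and 8.96% and 9.17% lower.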

How the data were processed

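The authors aligned reads with Cell Ranger to mm10 and deposited raw UMI counts of called cells (version 3.1.0 per the file headers, 3.0.1 per the labels). Cells with 500 to 40000 UMIs and over 200 genes and genes found in 3 cells were kept, 18865 genes in all. Members, lists and tests were chosen with earlier results of these data known. Gates take the first match, in a set order, of summed marker UMIs per 10000 (at least 3 UMIs); cuts were set from marker distributions, with no member seen. Clusters were not used. A gate needed 20 cells in each infarct library to be tested. Sums per library and gate entered 1 fit over all gates in edgeR 4.0.16 (R 4.3.3) with TMM scaling, filterByExpr and a library block. The threshold was an adjusted p (Benjamini-Hochberg, every tested gene) of 0.01. Sums of one library are paired because one heart gave them, and deviations of same-numbered sums correlated at 0.118 to 0.682. Infarct p-values rest on 3 hearts. CPM leave out mitochondrial genes, and Poisson intervals are exact at 95%.

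Genes were named as follows. All 42 may be named; full values were given for the 6 with the most UMIs, the 3 highest and 3 lowest log2 ratios of infarct to baseline among genes with at least 10 CPM, and up to 3 at each end of each gate's calls. From the second list up to 4 of the largest changes were named, and 1 gene of it is not reported here. Gm2a across gates, Sgsh, Ctsc, V-ATPase and Tfeb, Tfe3 and Mitf values were added after their values were seen.

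Alternatives were DESeq2 1.42.0 (size factors and Wald test), no filter, no block, each infarct library left out, gate cuts halved or doubled, at least 1000 UMIs, 10% mitochondrial UMIs at most, thinning to 2000 UMIs, doublets removed, TMM scaling, CPM with mitochondrial genes and the mean of cell CPM. Scrublet (scanpy 1.11.5) called 1.92% of baseline and 0% of infarct cells, so the 8.1% to 8.63% with the highest scores were removed instead. Added after seeing the data were gates fitted alone, Mmp9 left out of the granulocyte markers, and cells with 3 or more Ctsk UMIs left out. The test was tested on simulated data with 200 genes changed 2-fold: 94.5% were recovered for Gpnmb-Spp1 and 42% for granulocytes. The simulated counts left out the gene-wise part of the spread that the quasi-likelihood test estimates, so recovery in the data may be lower. Plots were drawn with matplotlib 3.10.9.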

Additional observations from a re-analysis of the deposited data

Results flagged for a closer look

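Atp6v1b2, the B subunit of the V1 sector, moved past 1.5-fold in opposite directions between gates. Its log2 ratio of infarct to baseline was 0.71 in resident macrophages and −0.90 and −0.72 in Gpnmb-Spp1 macrophages and classical monocytes. The 1.5-fold rule requires all 3 infarct libraries on the same side of baseline in each gate, so their agreement adds no support. The difference between the gates was not tested.

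Cells in no gate also held more of the 42 genes, with 24076 ± 1971 CPM (SD, n = 3) in the infarct libraries and 17685 CPM at baseline. The cells in no gate differed in depth, with a median of 1302 UMIs at baseline and 7554, 9444 and 8168 in infarct replicates 1, 2 and 3. Their median mitochondrial share was higher at baseline than in each infarct library. Of these cells, 5 of 733 at baseline and 8 of 653, 43 of 530 and 3 of 581 in the infarct libraries had 3 or more Ctsk UMIs. The part of depth and of the kinds of cells in the difference was not tested. Cells in no gate enter no comparison between gates.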

How the results depend on the processing

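Depth limits genes near 10 CPM and gates with few cells, such as the 114 Gpnmb-Spp1 macrophages at baseline, and infarct against baseline rests on 1 baseline library. Of the counts and sums, 469 values under an alternative stayed within the stated limits and 101 moved. Of the values of single genes, 2464 stayed, 226 no longer passed, 105 moved and 1 reversed: Mcoln1 in Gpnmb-Spp1 macrophages went from −0.75 to 0.027 with cuts halved. The cause was not tested for any of these.

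For gates against remaining macrophages, numbers of the 42 genes higher were as follows. The share of all genes called higher moved too. In Gpnmb-Spp1 macrophages 3.73% became 11.7% (fitted alone), 3.11% (no filter), 1.14% (no block) and 1.29% to 2.6% with 1 library left out. In Saa3-Arg1 macrophages 17.6% became 17.9% (thinned) and 11.4% (no filter), and in interferon macrophages 5.87% became 9.04% (fitted alone). In resident macrophages 9.68% became 7.28% (cuts doubled), 9.4% (doublets removed), 6.72% (no block) and 4.47% to 8.4% with 1 library left out. In classical monocytes 19.7% became 19.9% (cuts doubled), 17.5% (fitted alone) and 13.7% to 16.8% with 1 library left out. In granulocytes 9.33% became 12.1% (DESeq2 test), 6.57% (no filter), 9.84% (thinned), 3.8% (fitted alone) and 5.27% to 6.62% with 1 library left out. In Gpnmb-Spp1 macrophages 12 became 31 (fitted alone, with 1 lower), 19 (no filter), 4 (without the replicate block, that is, without the pairing by heart) and 1 to 16 with 1 library left out. In Saa3-Arg1 macrophages 3 became 6 (cuts halved), 9 (thinned) and 7 under DESeq2, no filter, Mmp9 or Ctsk cells left out, and 1 to 6 with 1 library left out. In resident macrophages 4 became 2 with cuts doubled, doublets removed or no block, and 0 to 6 with 1 library left out. In classical monocytes 2 became 1 (cuts doubled or any library left out) and 4 (fitted alone). In granulocytes 4 became 7 (DESeq2 test or size factors), 8 (no filter), 2 (thinned), 1 (fitted alone), 0 (Mmp9 or Ctsk cells left out) and 1 to 4 with 1 library left out. In interferon macrophages 0 became 14 (fitted alone), 2 (DESeq2 or thinned), 1 (cuts halved or no filter) and 0 to 1 with 1 library left out. In cycling macrophages 0 became 2 (DESeq2 or fitted alone) and 1 (cuts halved, Mmp9 or Ctsk cells left out), and in non-classical monocytes 1 became 1 to 2 with 1 library left out. Under these settings the share of all genes higher went from 16.4% to 16% to 17.9% in cycling macrophages. In non-classical monocytes it went from 10.7% to 6.09% to 9.18%. Numbers lower became 10 from 6 in Saa3-Arg1 macrophages (no filter), 8 from 14 in cycling macrophages (thinned) and 7 to 11 with 1 library left out, 11 from 17 in non-classical monocytes (cuts halved), and 12 to 19 from 20 in classical monocytes with 1 library left out. The share of all genes lower fell too, from 17.3% to 10.8% in Saa3-Arg1 macrophages and from 9.14% to 5.63% in non-classical monocytes. In cycling macrophages 15.4% became 6.57% (thinned) and 6.08% to 9.41% with 1 library left out. In classical monocytes 20.7% became 13.8% to 15%. The block changed the number called by over 1.5 times only in Gpnmb-Spp1 and resident macrophages.

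For infarct against baseline, TMM scaling moved the log2 ratio of the sum from 0.66 to 0.94 in all cells, 0.05 to 0.23 in Gpnmb-Spp1, 0.59 to 0.86 in remaining, 0.73 to 0.97 in cycling and 0.61 to 0.91 in interferon macrophages, 0.22 to 0.37 in classical monocytes and 0.12 to 0.28 in dendritic cells. The mean of cell CPM gave 0.73, 0.18, 0.28, 0.30 and 0.048 in all cells, Gpnmb-Spp1 macrophages, classical monocytes, non-classical monocytes and dendritic cells. Without the most abundant gene the ratio was 0.62, 0.18, 0.24 and 0.035 in all cells, classical monocytes, non-classical monocytes and dendritic cells, and with mitochondrial genes 0.68 in all cells. Cuts halved gave 0.27 in classical and 0.31 in non-classical monocytes and 0.065 in dendritic cells, and cuts doubled 0.15 in Gpnmb-Spp1 macrophages and in non-classical monocytes and 0.44 in resident macrophages. Thinning gave 0.16, 0.54 and 0.028 in Gpnmb-Spp1 and interferon macrophages and dendritic cells, and removing doublets 0.067 in dendritic cells. Genes past 1.5-fold above went under TMM from 13 to 26 in all cells, 9 to 26 in remaining macrophages, 4 to 10 in Gpnmb-Spp1 macrophages and 5 to 8 in classical monocytes. In the same order, the share of all genes above went from 5.53% to 16.9%, 6.65% to 17.4%, 8.18% to 14.2% and 7.42% to 12.9%. In Gpnmb-Spp1 macrophages the genes above were 7 with cuts doubled or halved, 8 by the mean of cell CPM and 10 thinned, and in resident macrophages 9 with cuts doubled. Of all genes, 9.75% lay above with cuts doubled and 8.65% by the mean of cell CPM in Gpnmb-Spp1 macrophages. With cuts doubled, 10.4% lay above in resident macrophages. The shares for cuts halved and thinning are not given. Genes below went from 0 to 1 in all cells (mean of cell CPM, no filter, thinned), from 4 to 2 in Gpnmb-Spp1 macrophages (TMM, thinned), and from 1 to 0 in remaining macrophages and classical monocytes (TMM). Of all genes, 23.1% below in all cells became 22.6% (mean of cell CPM) and 32.7% (no filter). Under TMM, 16.9% became 9.11% in Gpnmb-Spp1 macrophages, 20.9% became 8.78% in remaining macrophages and 18.3% became 11.5% in classical monocytes. In classical monocytes the genes below were 2 with cuts doubled, doublets removed, no filter, thinning or 10% mitochondrial UMIs at most, and 1 to 2 with 1 library left out. In resident macrophages they were 2 with cuts doubled and 1 to 2 with 1 library left out. Of all genes, 18.6% (cuts doubled) and 23.9% (no filter) lay below in classical monocytes, and 20.9% (cuts doubled) in resident macrophages. The shares for the other settings of these 2 gates are not given.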
